A study of Rattus norvegicus with 12 samples.

Results

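Egr1, Egr2, Egr3, Egr4, Arc, Homer1 and Ier2 were followed in F11 cells given forskolin for up to 48 h. The 7 genes were taken by name from the array, out of 35537 genes or unnamed transcripts on it, and 8 probes carried their names: 2 for Homer1 and 1 for each of the others. They were chosen on the measured ratios of forskolin over reference on these 12 arrays, as activity-regulated genes lying partly below the reference, with Egr4, which lay above it early, for contrast. Those ratios are therefore given as a description with no test, and the tests are of the steps between successive times. The steps come from the same 12 arrays, so they are not independent of that choice either. Probes of 5 of the 7 genes (Egr1, Ier2, Arc, Homer1 and Egr4) passed the filter on dim signals, among 17805 genes tested in all. Egr2 and Egr3 did not pass it, so nothing below on folds covers all 7.

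The F11 line is a hybrid of rat dorsal root ganglion neurons and a mouse neuroblastoma. Cells were kept for 3 h in 0.5% serum and then given 10 µM forskolin, a diterpene that stimulates adenylyl cyclase and thereby cyclic AMP, for 2, 4, 24 or 48 h, with 3 arrays for each time. The reference on every array was RNA of F11 cells that had 3 h of low serum and no forskolin. Cy3 labelled the forskolin sample and Cy5 the reference on each of the 12 arrays, with no dye swap, so a dye effect peculiar to a probe stays in each ratio and cancels between times. The reference counts as 1 control sample and its own spread is not known. No array held cells kept as long in low serum without forskolin, so time in low serum and time in forskolin cannot be told apart. Mouse transcripts of this hybrid may bind the rat probes, which was not tested. RNA came from whole cultures, so fewer cells making a transcript and less of it per cell cannot be told apart. Nothing in the labels says that the 3 replicates came from separate cultures, so the spread between them may be technical.

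On each array, 19889 to 21973 of 43379 spots other than controls gave forskolin signal well above background, and 19504 to 23285 gave such reference signal, and 3 arrays per time limit the precision. Of 15 sensory neuron markers, 12 were well above background in the reference channel on all 12 arrays (Trpv1, Scn10a and Pou4f1 were not), against 2 of 8 glial, 3 of 7 fibroblast and 2 of 8 leukocyte or endothelial markers. Among the markers of other cell types that were are Sox10, Col1a1, Col1a2, Pdgfra, Cd68 and Kdr. Each slide held 1 array of each time, and a time always lay at the same array position, so position and time cannot be told apart. The median of all tested genes lay at -0.02, -0.03, -0.02 and -0.02 on the log2 scale at 2, 4, 24 and 48 h. Loess was also replaced by centring each array on the median of all its spots other than controls, dim ones included. The median of tested genes then lay at -0.57, -0.58, -0.45 and -0.45, and values under that scaling are given relative to it. Unlike loess, median centring leaves in any dye effect that varies with brightness. Giving values relative to the median of tested genes does not remove such an effect.

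These genes are counted among the immediate-early genes, which neurons switch on within minutes of a stimulus without needing new protein. In the textbook account, ERK kinases act on ternary complex factors bound with serum response factor (SRF) at CArG boxes, and cyclic AMP acts through protein kinase A and CREB at CRE sequences. Egr1 to Egr4 encode zinc-finger transcription factors, Arc and Homer1 encode proteins of the synapse, and Ier2 encodes a small nuclear protein induced by growth factors.

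The promoters of Egr1, Ier2 and Egr4 are shown because they hold different sets of these motifs. The sequences are those of RefSeq on build GRCr8, of which 5 of the 7 genes had an entry. Each runs 5′ to 3′ over the 250 bases before the annotated start of transcription, with CArG boxes (CC and GG around a stretch of A and T) and the CRE half-site TGACG, on either strand, in capitals. The Egr1 window is chr18:26736828-26737077 on the plus strand, that of Ier2 is chr19:40399123-40399372 on the plus strand and that of Egr4 is chr4:119607818-119608067 on the minus strand.
Egr1: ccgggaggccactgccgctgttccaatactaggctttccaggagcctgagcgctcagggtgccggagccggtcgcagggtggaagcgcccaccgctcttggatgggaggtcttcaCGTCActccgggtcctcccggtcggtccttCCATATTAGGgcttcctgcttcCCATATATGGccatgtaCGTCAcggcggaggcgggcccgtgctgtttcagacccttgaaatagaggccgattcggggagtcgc
Ier2: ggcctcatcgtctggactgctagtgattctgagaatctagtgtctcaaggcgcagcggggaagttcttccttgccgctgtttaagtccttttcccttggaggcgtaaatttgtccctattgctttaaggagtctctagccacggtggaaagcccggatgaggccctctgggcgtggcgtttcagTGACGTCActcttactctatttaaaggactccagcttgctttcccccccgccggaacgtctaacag
Egr4: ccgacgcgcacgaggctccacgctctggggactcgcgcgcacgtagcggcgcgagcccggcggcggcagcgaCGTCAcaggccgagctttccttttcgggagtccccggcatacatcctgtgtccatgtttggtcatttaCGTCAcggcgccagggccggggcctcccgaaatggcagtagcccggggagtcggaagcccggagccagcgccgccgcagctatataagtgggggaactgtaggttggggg

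Motifs were searched on both strands of the window from 250 bases before to 50 bases after the start. The Egr1 window held 2 CArG boxes, CCATATTAGG at -105 to -96 and CCATATATGG at -83 to -74, and 2 CRE half-sites. Egr2 held 1 CArG box, again CCATATATGG at -83 to -74, and 1 half-site. Egr4 held 2 half-sites and 0 CArG boxes, and Ier2 held 1 full CRE, TGACGTCA, at -66 to -59, which contains 2 overlapping half-sites. Homer1 held 0 matches of any motif searched. The Egr site GCGNGGGCG and the ETS core CCGGAAGT had 0 matches in these 5 windows. Over all 33469 RefSeq promoters of this length, 1.64% held a CArG box, 1.83% TGACGTCA, 21.2% TGACG, 4.98% GCGNGGGCG and 3.81% CCGGAAGT. A match is a match of letters only, and no binding was measured here.

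Egr1, whose protein binds GC-rich sites and is among the first products of growth factor and synaptic stimulation, was far below the reference at every time. Its probe, printed at 10 spots per array, lies at chr18:27373819-27373878 on the plus strand of rn3, the files' build. Whether that is exonic or in the untranslated part was not assigned, since no gene models of that build were at hand. The log2 ratio of forskolin over reference was -1.79, -1.62 and -1.71 at 2 h, and -3.02, -3.11 and -2.91 at 4 h. It was -2.08, -2.11 and -2.11 at 24 h, and -3.60, -3.35 and -3.33 at 48 h. The 4 times did not overlap, and their order ran 2, 24, 4 and 48 h from nearest to farthest below the reference. As means these were -1.70 ± 0.08, -3.01 ± 0.10, -2.10 ± 0.02 and -3.42 ± 0.15 at 2, 4, 24 and 48 h (SD, n = 3), or 3.25-, 8.07-, 4.28- and 10.7-fold below the reference.

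The Egr1 time course was mainly in the forskolin channel. The scanner's processed signal there averaged 1778 ± 150, 662 ± 44.0, 1500 ± 216 and 499.9 ± 20.3 at 2, 4, 24 and 48 h (SD, n = 3), and the same arrays' reference channel averaged 6071, 6721, 7099 and 7762. Over the 12 arrays the coefficient of variation was 51.9% in the forskolin channel and 12.5% in the reference channel. The reference channel averaged more at 48 h than at 2 h for Egr1, Arc, Homer1, Ier2 and Egr4. The cause was not tested. The 10 spots of an array spread little, with SDs of 0.02 to 0.07 on the log2 scale. Egr1 was well above background in both channels on all 12 arrays, so these folds are measured and not bounds. The offset of 50 added to each channel draws them towards 0: with no offset the mean at 48 h was -3.84, and -3.96 with the processed signals.

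**Figure D1:**
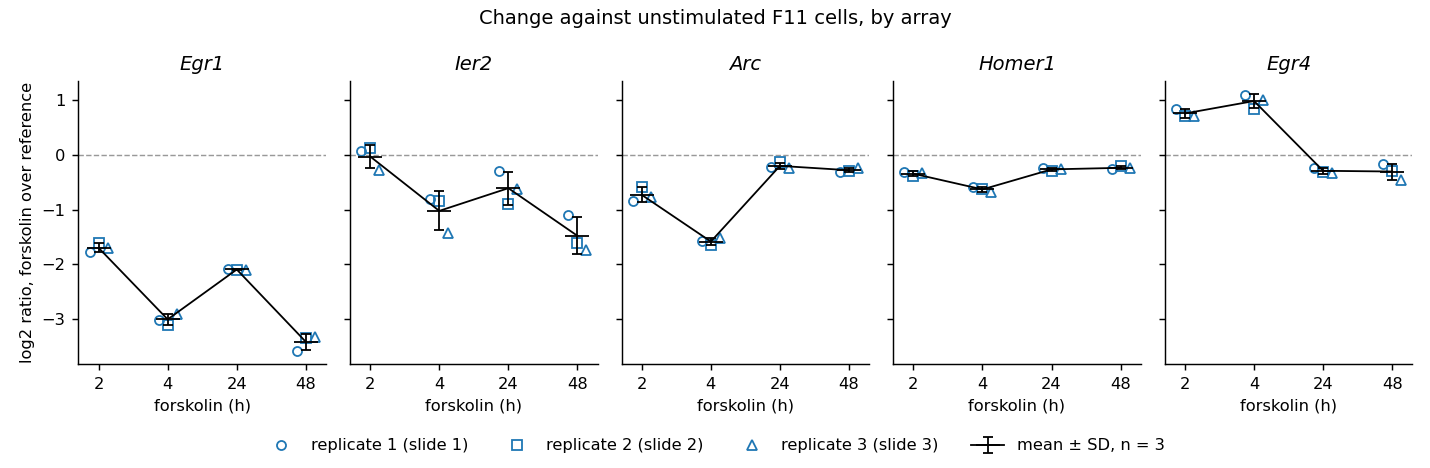
Log2 ratio of forskolin over reference (vertical axis) at 2, 4, 24 and 48 h of forskolin (horizontal axis, not to scale) for the 5 genes with a detected probe; open symbols are single arrays, by replicate, and black marks the mean ± SD, n = 3. Egr1 falls, partly returns and falls again, Arc and Homer1 have their lowest values at 4 h, and Egr4 lies above 0 at 2 and 4 h and below it at 24 and 48 h.

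Between successive times Egr1 fell, rose and fell again, each step larger than the spread between arrays. The log2 ratio fell to -3.01 at 4 h, against -1.70 at 2 h, a change of -1.31 (SE 0.08, limma, adjusted p = 1.2e-07). The per-slide changes were -1.23, -1.50 and -1.20. It rose to -2.10 at 24 h, against -3.01 at 4 h, a change of 0.91 (adjusted p = 5.7e-07), and 0.94, 1.01 and 0.80 on the 3 slides. Thus the 24 h level was 1.88 times the 4 h level, yet still 4.28-fold below the reference. It fell again to -3.42 at 48 h, against -2.10 at 24 h, a change of -1.33 (adjusted p = 2e-07), and -1.51, -1.24 and -1.22 on the 3 slides. By absolute size this was the change ranked 4 among 17805 genes between 24 and 48 h, and the change between 2 and 4 h was ranked 28. In those comparisons 14.8% and 15.6% of all genes tested were called, and 38.7% between 4 and 24 h. Egr1 was chosen on ratios of these same arrays, so its ranks and adjusted p are not independent of that choice.

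Ier2 was near the reference at 2 h and below it at the later times, with a wide spread between arrays. Its probe (chr19:25165474-25165533, plus strand, rn3) was printed once per array. The log2 ratio was 0.07, 0.12 and -0.27 at 2 h, and -0.80, -0.84 and -1.43 at 4 h. It was -0.30, -0.90 and -0.62 at 24 h, and -1.10, -1.62 and -1.73 at 48 h. Replicate 3 was the lowest array at 2, 4 and 48 h, and the 24 h values overlapped those of 4 h. The means were -0.03 ± 0.21, -1.02 ± 0.36, -0.61 ± 0.30 and -1.48 ± 0.34 at 2, 4, 24 and 48 h (SD, n = 3), the last being 2.79-fold below the reference. The direction at 2 h is unsettled, since the arrays fell on both sides of 0 and median centring gave -0.51 relative to all genes. At 24 h the same scaling gave -1.04.

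Ier2 fell in the same 2 steps as Egr1. It fell to -1.02 at 4 h, against -0.03 at 2 h, a change of -0.996 (SE 0.20, limma, adjusted p = 0.0039), with -0.87, -0.96 and -1.16 on the 3 slides. It fell to -1.48 at 48 h, against -0.61 at 24 h, a change of -0.87 (adjusted p = 0.0088), with -0.79, -0.72 and -1.11 on the slides. The step between 4 and 24 h was 0.42 with a 95% interval of -0.01 to 0.85 and did not pass the test (adjusted p = 0.12). On slides 1 and 3 it was 0.50 and 0.81, and on slide 2 it was -0.06. With the slide as a block, its adjusted p was 0.024. Without replicate 3 at 4 h the step was 0.21, and without replicate 1 at 24 h it was 0.26. Neither passed (adjusted p = 0.45 and 0.38 in limma). Ier2 was chosen on ratios of these same arrays, so its adjusted p are not independent of that choice.

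Arc, whose protein acts at excitatory synapses in the endocytosis of AMPA receptors, was lowest at 4 h and near the reference from 24 h on. Its probe (chr7:112806255-112806314, minus strand, rn3) was printed at 10 spots. The log2 ratio was -0.84, -0.58 and -0.77 at 2 h, and -1.58, -1.66 and -1.52 at 4 h. It was -0.22, -0.13 and -0.24 at 24 h, and -0.31, -0.29 and -0.24 at 48 h. The 2 and 4 h arrays overlapped neither each other nor the later ones, while the ranges of 24 and 48 h overlapped. The means were -0.73 ± 0.14, -1.59 ± 0.07, -0.20 ± 0.06 and -0.28 ± 0.04 (SD, n = 3), or 1.66-, 3.00-, 1.15- and 1.21-fold below the reference at 2, 4, 24 and 48 h. How near Arc came to the reference depends on the scaling. With median centring it lay at -0.72 and -0.83 relative to all genes at 24 and 48 h. That scaling leaves in any dye effect that varies with brightness. Arc's probe was bright, with a mean log2 intensity of 10.1, against 7.16 for Egr4.

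Arc's processed signal in the forskolin channel averaged 1648 ± 136, 1013 ± 30.6, 3208 ± 179 and 3136 ± 149 at 2, 4, 24 and 48 h (SD, n = 3), and in the reference channel 2785, 3342, 3672 and 3785. Arc fell to -1.59 at 4 h, against -0.73 at 2 h, a change of -0.86 (SE 0.07, limma, adjusted p = 2.3e-06), with -0.74, -1.08 and -0.75 on the 3 slides. It rose to -0.20 at 24 h, against -1.59 at 4 h, a change of 1.39 (adjusted p = 3.9e-09), with 1.36, 1.52 and 1.28 on the slides. Its level was then 2.62 times that at 4 h. Between 24 and 48 h it changed by -0.08, with a 95% interval of -0.23 to 0.07, and did not pass the test (adjusted p = 0.53). That interval leaves out a fall of the size seen in Egr1 over the same step. As with Egr1, the adjusted p of Arc are not independent of its choice on ratios of these arrays.

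Homer1, whose protein ties group I metabotropic glutamate receptors to the postsynaptic scaffold, was lowest at 4 h, as Arc was, over a smaller range. Of its 2 probes, the one for NM_031707 (10 spots) was detected, and neither had a position in the files. Which form of the transcript either probe reads was not assigned, so whether the detected one reads an immediate-early form is not known. The log2 ratio was -0.30, -0.39 and -0.33 at 2 h, and -0.59, -0.62 and -0.69 at 4 h. It was -0.23, -0.30 and -0.27 at 24 h, and -0.27, -0.21 and -0.23 at 48 h. The 4 h arrays lay apart from all others, and 24 and 48 h overlapped. The means were -0.34 ± 0.05, -0.63 ± 0.05, -0.26 ± 0.03 and -0.24 ± 0.03 (SD, n = 3), which at 4 h was 1.55-fold below the reference. With median centring they lay at -0.47 and -0.48 relative to all genes at 24 and 48 h.

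Homer1 fell to -0.63 at 4 h, against -0.34 at 2 h, a change of -0.29 (SE 0.05, limma, adjusted p = 0.0021), with -0.28, -0.23 and -0.35 on the 3 slides. This call was lost with median centring, where the change was -0.28 (limma, adjusted p = 0.39). It rose to -0.26 at 24 h, against -0.63 at 4 h, a change of 0.37 (adjusted p = 7.6e-05), with 0.36, 0.33 and 0.42 on the slides. The step between 24 and 48 h was 0.03, with a 95% interval of -0.09 to 0.14 (limma, adjusted p = 0.80). Homer1, too, was chosen on ratios of these arrays, so its adjusted p are not independent of that choice. The second Homer1 probe, for U92079, was not well above background in either channel on any of the 12 arrays. Its processed signal ranged between 5.83 and 30.4 in the forskolin channel and between 5.41 and 11.3 in the reference channel, so nothing can be said of the transcript it reads.

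**Figure D2:**
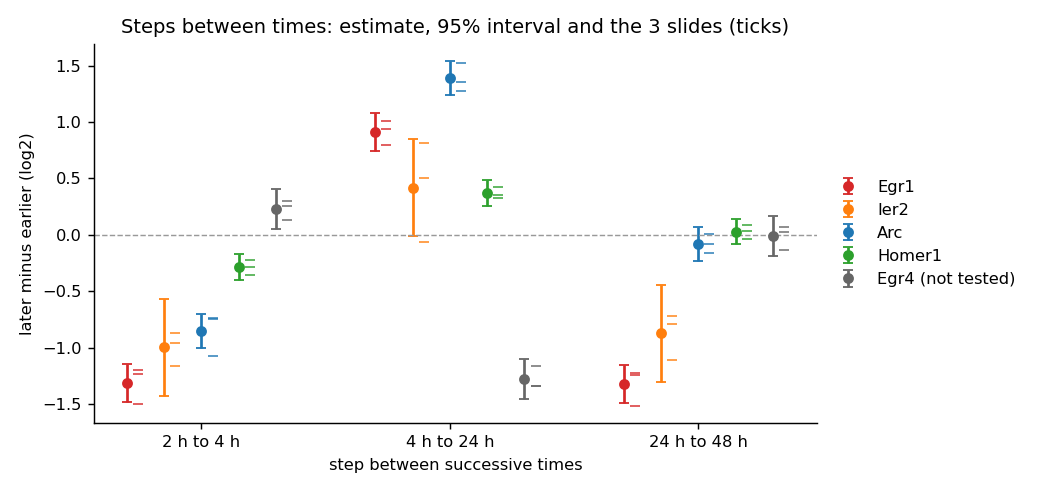
Difference of log2 ratios, later minus earlier (vertical axis), for each step between successive times (horizontal axis); points are limma estimates with 95% intervals, and ticks are the 3 slides. Egr1 and Ier2 change by -0.87 to -1.33 between 24 and 48 h, where Arc, Homer1 and Egr4 lie within 0.08 of 0.

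Egr4 lay above the reference early and below it late. Its probe (chr4:120009770-120009829, minus strand, rn3) was printed once. The log2 ratio was 0.85, 0.72 and 0.71 at 2 h, and 1.11, 0.85 and 1.01 at 4 h. It was -0.23, -0.31 and -0.33 at 24 h, and -0.16, -0.29 and -0.46 at 48 h. All 6 early arrays lay above 0 and all 6 late arrays below it. The means were 0.76 ± 0.08, 0.99 ± 0.13, -0.29 ± 0.05 and -0.30 ± 0.15 (SD, n = 3). The 2 and 4 h ranges overlapped at one end (0.85 each), and those of 24 and 48 h overlapped.

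Egr4 was dim, and the offset of 50 added to each channel draws its ratios towards 0. Its processed signal averaged 362 ± 45.4, 545 ± 44.7, 120 ± 6.11 and 117 ± 24.3 in the forskolin channel at 2, 4, 24 and 48 h (SD, n = 3), and 156, 172, 195 and 194 in the reference channel. The log2 ratio of these processed signals was 1.21, 1.66, -0.70 and -0.75. With median centring the late values were smaller, -0.14 and -0.16 relative to all genes, and the early ones were 0.78 and 0.95. The step between 4 and 24 h was -1.28, and -1.34, -1.16 and -1.34 on the 3 slides. It is given with no test because this time course was the reason for the choice of Egr4.

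**Figure D3:**
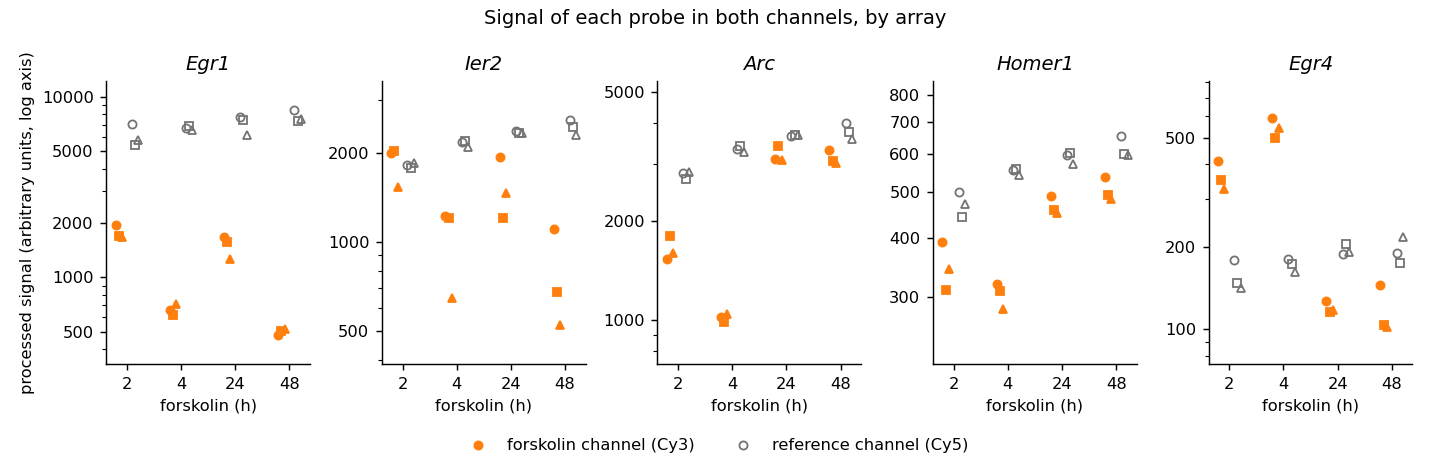
Processed signal of each probe (vertical log axis, arbitrary units, a different range in each panel) at each time (horizontal axis), by array, in the forskolin channel (filled) and the reference channel (open). For Egr1 the forskolin channel averaged 499.9 at 48 h and 1778 at 2 h, while the reference channel averaged 6071 to 7762.

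Egr2 and Egr3, the remaining zinc-finger members, could not be followed. Egr2 (chr20:21897740-21897799, minus strand, rn3) was not well above background in either channel on any of the 12 arrays. Its processed signal ranged between 5.18 and 32.6 in the forskolin channel and between 5.33 and 18.6 in the reference channel. Egr3 (chr15:50494763-50494822, plus strand, rn3) was well above background on 0 of 12 arrays in the forskolin channel and on 1 of 12 in the reference channel, at 4 h. Its processed signal ranged between 5.41 and 26.9 in the forskolin channel and between 9.82 and 39.3 in the reference channel. With both channels at or near background, no fold is given for either gene.

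The 5 measured genes thus fell into different time courses, described here over 12 arrays that share their reference and their 4 times. The log2 ratios of Arc and Homer1 had a Pearson r of 0.94, and those of Egr1 and Ier2 of 0.85. Egr4 ran against both Arc (-0.89) and Homer1 (-0.81). It was chosen for lying above the reference early, in contrast to the others, so this opposition follows in part from the choice. Egr1 and Arc had an r of 0.17. The step between 24 and 48 h was -1.33 for Egr1 and -0.08 for Arc.

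The genes with the most similar ratios over the 12 arrays were taken from 566 named genes called by limma's F test and spanning at least 1 log2 unit between time means. For Egr1 they were Bhlhe40 (r = 0.94), Ppp1r15a (0.92), Id1 (0.90), Atf3 (0.89) and E2f8 (0.86). Bhlhe40 encodes a repressor of the circadian clock, Ppp1r15a a phosphatase subunit of the stress response, Id1 a dominant-negative helix-loop-helix protein, Atf3 a stress-induced bZIP factor and E2f8 a cell cycle repressor. At 2 h 4 of these 5 lay on the other side of the reference from Egr1. There the mean log2 ratio was 0.51 for Bhlhe40, 0.69 for Ppp1r15a, 1.82 for Id1 and 0.48 for Atf3, against -1.70 for Egr1. At 48 h all 5 were below the reference, between -0.25 for Ppp1r15a and -2.04 for E2f8, whose second probe lay at -0.42.

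For Arc the nearest were Smco4 (r = 0.99), Zmynd8, Phldb1 and Ptpre (0.98 each) and Efs (0.97). All 5 were below the reference at 4 h, between -0.65 for Smco4 and -1.32 for Zmynd8. At 24 h they lay between 0.23 for Phldb1 and 0.56 for Smco4, whereas Arc lay at -0.20. Relative to all genes under median centring, 4 of these 24 h values turned negative (Zmynd8, Phldb1, Ptpre and Efs). The other 2 probes of Zmynd8 lay at -1.19 and -0.03 at 4 h, and the other 2 of Ptpre at 0.10 and -0.03.

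For Egr4 the nearest were Pcna, Hist1h2bg and Nr4a3 (r = 0.99 each), and Ythdf1 and Rgs2 (0.98 each). Pcna encodes the sliding clamp of DNA replication, Rgs2 an inhibitor of G protein signals, Hist1h2bg a histone and Nr4a3 an orphan nuclear receptor. At 4 h the mean log2 ratio was 0.43 for Pcna and 0.34 for Hist1h2bg, against 3.30 for Nr4a3 and 3.92 for Rgs2. At 24 h it was -1.07 and -1.01 for Pcna and Hist1h2bg, and -0.09 and 0.13 for Nr4a3 and Rgs2. A second probe of Pcna lay at 0.12 at 4 h and -1.28 at 24 h. Relative to all genes under median centring, the 4 h values of Pcna and Hist1h2bg turned to -0.12 and -0.18, and that of Rgs2 at 24 h to -0.38.

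**Figure D4:**
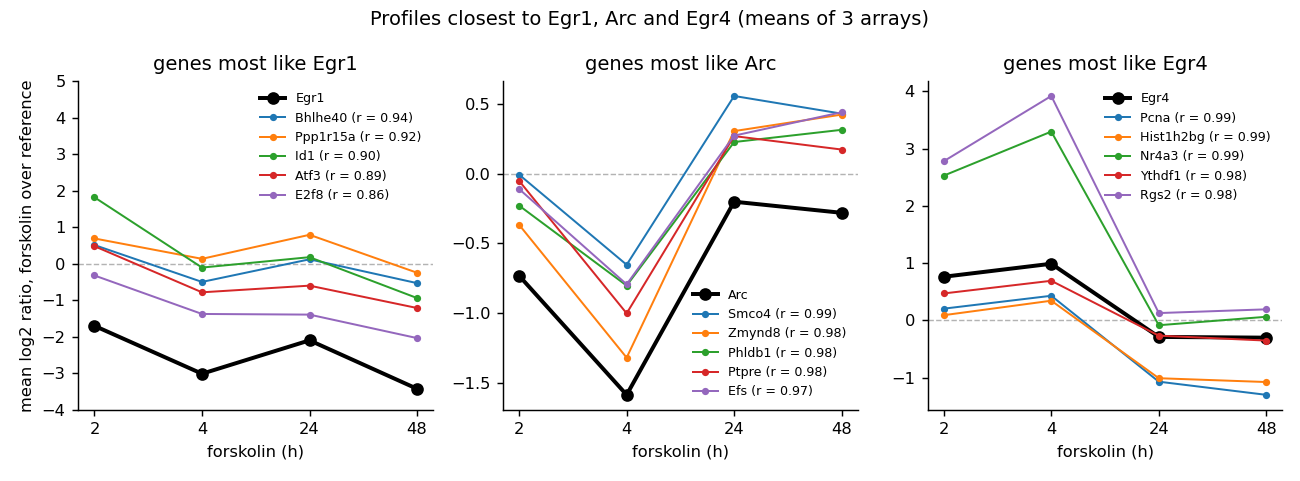
Mean log2 ratio of forskolin over reference (vertical axis, means of 3 arrays) at each time (horizontal axis) for Egr1, Arc and Egr4 (black) and the 5 genes most like each by Pearson r over 12 arrays. The panels have different vertical ranges. The genes most like Arc are all below 0 at 4 h and above 0 at 24 h, where Arc is at -0.20; under median centring 4 of these 24 h values lie below the median of all genes.

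At 2 h, when Egr1 and Arc lay below the reference, most genes of a list named SRF and ERK immediate-early genes lay above it. The list is a grouping by name. Activity of SRF, ERK or CREB was not measured, and which of them acted on these genes was not tested. Of 38 such genes listed, without the 7, 32 were tested, and 22 rose and 3 fell at 2 h (limma, adjusted p under 0.05), where 28.3% of all genes tested were called, 10% rising and 18.3% falling. At 4 h 15 rose and 8 fell, where 49.6% of all genes were called, 19.5% rising and 30.1% falling. At 24 h 8 rose and 11 fell, where 53.3% of all genes were called, 24.1% rising and 29.2% falling. At 48 h 8 rose and 13 fell, where 57.2% of all genes were called, 26.9% rising and 30.3% falling. The list's median log2 ratio was 0.75 at 2 h and 0.08 at 4 h, with all genes at -0.02 and -0.03. With median centring 12 rose and 12 fell at 2 h, where 1.27% of all genes rose and 75.9% fell, and 9 rose and 17 fell at 4 h, where 1.84% and 76.2% did. The list's median then lay 0.60 and 0.22 above that of all genes. At 24 h 2 rose and 22 fell under that scaling, where 3.02% and 69.8% of all genes did. At 48 h 1 rose and 24 fell, where 4.05% and 69.8% did. The list's median at 24 and 48 h was then -0.31 and -0.34 relative to all genes, against 0.007 and 0.019 after loess.

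Nr4a3 rose to a log2 ratio of 3.30 ± 0.13 at 4 h (adjusted p = 1.7e-13), the nuclear receptor gene Nr4a1 to 2.55 ± 0.12 at 4 h, and the antiproliferative gene Btg2 to 2.70 ± 0.15 at 2 h (SD, n = 3). Fos and Junb, partners in the AP-1 factor and named here after their values were seen, rose to 1.22 ± 0.10 and 1.78 ± 0.06 at 2 h, when Egr1 lay at -1.70. Among the list's largest falls were Klf10, a TGF-beta-induced repressor gene, at -2.55 ± 0.07 at 4 h and Atf3 at -1.21 ± 0.08 at 48 h. Srf itself fell to -1.46 ± 0.03 at 4 h (adjusted p = 3.5e-12) and was at -0.03 ± 0.04 at 2 h. The probes of these genes did not all tell the same: a second probe of Klf10 lay at -0.55 at 4 h, 3 dimmer probes of Srf at 0.44, -0.24 and -0.79, and 2 of Nr4a3 at 2.58 and 0.16.

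Between 2 and 4 h, when Egr1 fell, 19 of the 32 tested genes of this list fell and 5 rose, where 10.1% of all genes fell and 5.55% rose. With median centring 12 fell and 2 rose, where 1.37% of all genes fell and 0.629% rose, and with no offset or with the authors' values 16 fell. Between 4 and 24 h 15 fell and 6 rose, where 17.8% and 21% of all genes did, and over that step Egr1 and Arc rose. Between 24 and 48 h 7 fell and 5 rose, where 6.78% and 7.99% of all genes did.

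ERK feedback genes and ETS factors, which act in or answer to the kinase pathway upstream of Egr1, were called in both directions. Of 28 listed, 23 were tested, and 7 rose and 5 fell at 2 h, 6 rose and 7 fell at 4 h, and 8 rose and 6 fell at both 24 and 48 h. With median centring 0 rose and 18 fell at 2 h and 1 rose and 19 fell at 4 h, or 78.3% and 82.6% falling beside 75.9% and 76.2% of all genes, and the median lay at -0.20 and -0.18 relative to all genes. The phosphatase gene Dusp6 fell to -0.85 ± 0.06 at 4 h, the ETS factor gene Etv5 to -0.80 ± 0.06 and the feedback inhibitor gene Spry1 to -0.79 ± 0.06 (SD, n = 3). Second probes of Etv5 and Spry1 lay at -0.02 and -0.18 there. Ets2 rose to 1.68 ± 0.04 at 4 h and Ets1 to 0.74 ± 0.05 at 24 h. Etv5 was above the reference at 48 h (0.43 ± 0.12), but with median centring it was -0.43 relative to all genes. At 2 h 30.4% of the list rose and 21.7% fell, beside 10% and 18.3% of all genes, and at 4 h 26.1% and 30.4%, beside 19.5% and 30.1%. At 24 and 48 h 34.8% rose and 26.1% fell, beside 24.1% and 29.2% of all genes at 24 h and 26.9% and 30.3% at 48 h. With median centring 0 rose at either time, and 18 fell at 24 h and 21 at 48 h. That is 78.3% and 91.3% falling, beside 69.8% of all genes at each time. The list's median was then -0.20 and -0.29 relative to all genes.

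Nab1 and Nab2 encode the corepressors that bind Egr proteins. Nab1 was not well above background on any array in either channel. Nab2 lay at 0.16 ± 0.05 at 2 h and -0.16 ± 0.10 at 4 h and passed the test at neither time (adjusted p = 0.078 and 0.052). It fell to -0.20 ± 0.19 at 24 h and -0.24 ± 0.10 at 48 h (SD, n = 3, adjusted p = 0.018 and 0.0044), and with median centring it lay 0.25 and 0.23 above all genes at these times. Of 24 corepressor and Egr1-linked genes, 19 were tested, and 3 rose and 4 fell at 2 h, 3 rose and 8 fell at 4 h, 6 rose and 6 fell at 24 h, and 8 rose and 6 fell at 48 h. As shares, 15.8% rose and 21.1% fell at 2 h, beside 10% and 18.3% of all genes, and 15.8% and 42.1% at 4 h, beside 19.5% and 30.1%. At 24 h 31.6% rose and 31.6% fell, beside 24.1% and 29.2%, and at 48 h 42.1% and 31.6%, beside 26.9% and 30.3%. With median centring 0 rose and 15 fell at 2 h, where 1.27% of all genes rose and 75.9% fell. At 4 h 0 rose and 17 fell, where 1.84% and 76.2% did. At 24 h 2 rose and 11 fell, where 3.02% and 69.8% did. At 48 h 1 rose and 14 fell, where 4.05% and 69.8% did. The list's median was then 0.04, -0.02, -0.04 and 0.12 relative to all genes at 2, 4, 24 and 48 h. The fibronectin gene Fn1 fell to -1.28 ± 0.11 at 48 h, with its second probe at -0.45, and the stress cytokine gene Gdf15 to -0.79 ± 0.04 at 4 h. Th, the rate-limiting enzyme of catecholamine synthesis, rose 2.83-fold at 24 h (adjusted p = 8e-12).

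Synaptic activity-regulated genes other than Arc and Homer1 mostly lay above the reference. Of 30 listed, 23 were tested, and 16 rose and 0 fell at 2 h, 15 rose and 0 fell at both 4 and 24 h, and 15 rose and 2 fell at 48 h (limma, adjusted p under 0.05). That is 69.6% rising at 2 h and 65.2% at each later time, beside 10%, 19.5%, 24.1% and 26.9% of all genes at 2, 4, 24 and 48 h, of which 18.3%, 30.1%, 29.2% and 30.3% fell. The 2 that fell were Cdkn1a (-0.36 ± 0.11), a cyclin-dependent kinase inhibitor gene, and the repressor gene Nfil3 (-0.11 ± 0.05). At 4 h the median of the list was 0.62, when Arc lay at -1.59 and Homer1 at -0.63. Rgs2 rose to 3.92 ± 0.01, the kinase gene Sik1 to 3.47 ± 0.16 and the substance P precursor gene Tac1 to 3.27 ± 0.11 at 4 h (SD, n = 3). With median centring 8 of the list rose and 9 fell at 2 h and 11 rose and 8 fell at 4 h, 7 rose and 8 fell at 24 h, and 6 rose and 9 fell at 48 h, while the median lay 0.60, 0.74, 0.37 and 0.43 above that of all genes. Of all genes 1.27%, 1.84%, 3.02% and 4.05% then rose and 75.9%, 76.2%, 69.8% and 69.8% fell.

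Genes of Homer and Arc partners were called in both directions from 4 h on. Of 25 listed, 20 were tested, and 0 rose and 5 fell at 2 h, 3 rose and 9 fell at 4 h, 6 rose and 5 fell at 24 h, and 10 rose and 3 fell at 48 h. As shares, 0% rose and 25% fell at 2 h, beside 10% and 18.3% of all genes, and 15% and 45% at 4 h, beside 19.5% and 30.1%. At 24 h 30% rose and 25% fell, beside 24.1% and 29.2%, and at 48 h 50% and 15%, beside 26.9% and 30.3%. With median centring 0 rose at any time and 17, 17, 15 and 13 fell at 2, 4, 24 and 48 h, where 75.9%, 76.2%, 69.8% and 69.8% of all genes fell, and at 48 h the list's median lay 0.15 above that of all genes. Trpc1, a cation channel gene, fell to -0.42 ± 0.11 at 4 h. Homer3 was at 0.07 at 4 h and fell to -0.42 ± 0.12 at 24 h. The gene of the endocytic GTPase dynamin 1, Dnm1, rose to 0.74 ± 0.07 at 48 h, and Camk2b, which encodes a subunit of a calcium-dependent kinase, to 0.56 ± 0.16 (SD, n = 3), with its second probe at 0.19.

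**Figure D5:**
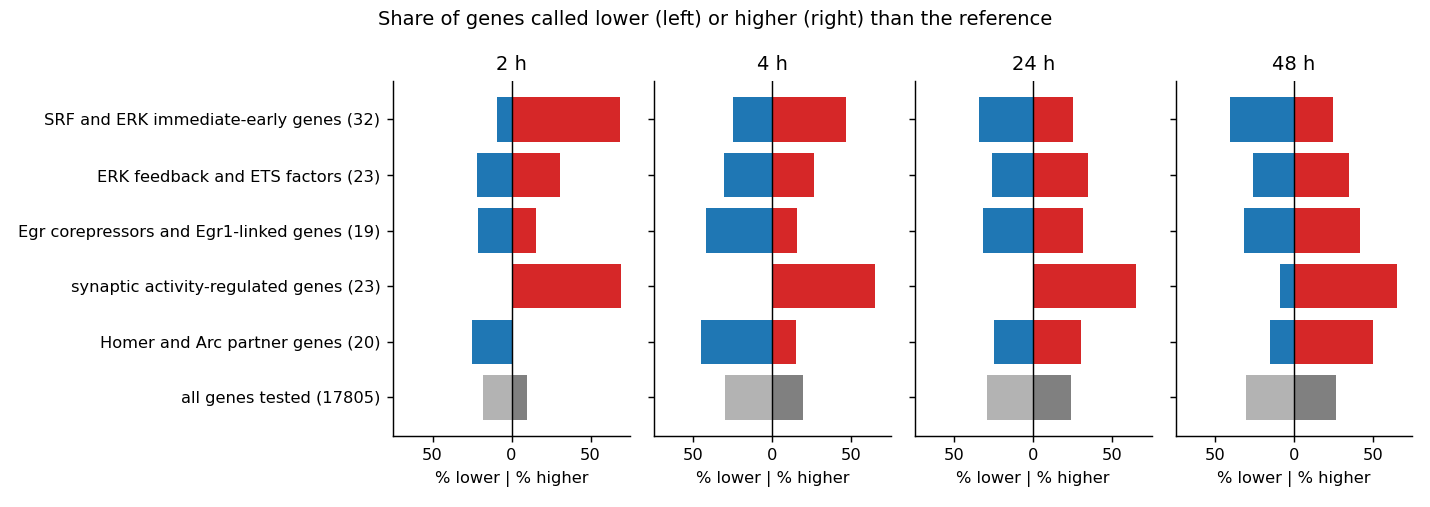
Percent of each list's tested genes (number in brackets) called lower (left) or higher (right) than the reference (horizontal axis) at each time, with all 17805 genes in grey; the lists leave out the 7 genes followed here. At 2 h, 68.8% of SRF and ERK immediate-early genes and 69.6% of synaptic activity-regulated genes were higher, against 10% of all genes; with median centring 12 of 32 and 8 of 23 were, against 1.27% of all genes.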

How the data were processed

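The deposited scanner files give, per the file headers, the mean and background intensity of 45018 spots in both colours from Feature Extraction 9.5.1.1, and processed intensity values, background-subtracted and dye-normalized. The deposited series matrix holds the authors' log2 values, for which the submitters' processing notes name limma; against the scanner values they ran red over green (r of -0.94 to -0.96 with green over red), their column medians were 0.0067 to 0.012, and the sources used here do not give their normalization. In limma 3.58.1 (R 4.3.3; package data.table, 1.17.8), intensities were corrected with normexp (offset 50) and log2 green over red normalized by loess within arrays, with control spots at weight 0. Outlier-flagged spots were dropped, then the spots of each probe averaged. Probes were kept when at least a share of 0.5 of their spots stood well above background, in 1 channel or both, on the 3 arrays of some time, with values on at least 2 arrays of each time. This left 20630 of 41012 probes, and the brightest stood for a gene (17805 genes). Names were updated through RefSeq genes of GRCr8: 10735 probes by accession, 5571 by current symbol and 3729 by synonym, while 20977 kept the file's name. A mean per time was fitted to 12 arrays (8 residual degrees of freedom) with eBayes and Benjamini-Hochberg adjustment over all genes. The fit was tested on simulated data. Arrays with the same replicate number share a slide, per the file headers. Their deviations from the time means correlated at 0.32 to 0.47 on slide 1, 0.05 to 0.31 on slide 2 and 0.05 to 0.25 on slide 3. The fit with the slide as a block and the per-slide steps are therefore given. Alternatives were other background correction, scaling, filter, probe rule, the authors' values, the slide as a block and leaving out each array. Named were all 7 genes, the 5 genes most like Egr1, Arc and Egr4, up to 3 called genes with the largest rise and 3 with the largest fall from each of 5 lists, and Nab1 and Nab2; some of the genes so named are not reported here. Dusp1 and Ptgs2 stand in 2 lists each. The 7 genes, the lists and the tests were chosen with earlier results of these data known.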

Additional observations from a re-analysis of the deposited data

Results flagged for a closer look

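Steps between successive times that differed by the test of the difference itself were the following, in log2 units, later minus earlier, on 3 slides each. The genes were chosen on ratios of these same arrays, so the tests are not independent of that choice. Egr1 changed by -1.31 between 2 and 4 h, by 0.91 between 4 and 24 h and by -1.33 between 24 and 48 h, in the same direction on 3 of 3 slides at each step. Arc changed by -0.86 between 2 and 4 h and by 1.39 between 4 and 24 h, each on 3 of 3 slides. Homer1 changed by -0.29 and 0.37 over the same steps, each on 3 of 3 slides. Ier2 changed by -0.996 between 2 and 4 h and by -0.87 between 24 and 48 h, each on 3 of 3 slides. Egr4 changed by -1.28 between 4 and 24 h, with every 4 h array above the reference and every 24 h array below it; the difference was not tested.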

How the results depend on the processing

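With 3 arrays per time and a single dye orientation, precision and dye bias limit every ratio, and the offset compresses dim signals, among them Egr4, Homer1 and the forskolin channel of Egr1. Of 21 alternatives, 8 could give another value of a ratio, and none of those 8 reversed a ratio of Egr1, Arc, Homer1 or Egr4 at any time or of Ier2 at 4, 24 and 48 h. Every tested step of Egr1, Arc and Ier2 that passed with loess passed under all 21 alternatives, as did the Homer1 rise between 4 and 24 h. The Homer1 fall between 2 and 4 h failed under median centring alone (limma, adjusted p = 0.39). The alternative that scaled brightness between arrays (Aquantile in limma) leaves every log2 ratio as it was, so its passes are no check. The filter and probe-rule alternatives changed the adjusted p of the Egr1 and Arc steps and not their size. The Ier2 step between 4 and 24 h passed under median centring (limma, adjusted p = 0.026) and the slide block, and its adjusted p ranged over 0.024 to 0.45. Median centring moved the counts of genes called to 13745 at 2 h and 13897 at 4 h, against 5045 and 8834 after loess. For the steps from 2 to 4, 4 to 24 and 24 to 48 h it gave 356, 3357 and 276, against 2782, 6899 and 2631. That scaling sets to 0 the median of all spots other than controls, dim ones included, and not that of the tested genes. It also leaves in any dye effect that varies with brightness. How much of the difference comes from this was not tested. The share of calls that were higher under median centring was 1.64%, 2.36%, 4.14% and 5.48% at 2, 4, 24 and 48 h. After loess it was 35.3%, 39.3%, 45.2% and 47%. For the steps it was 31.5%, 79.5% and 59.1% under median centring, against 35.5%, 54.1% and 54.1%. With the replicate block (slide), 6189, 9693, 10326 and 10932 genes were called at 2, 4, 24 and 48 h and 3491, 7697 and 3345 over the 3 steps; apart from Ier2 between 4 and 24 h it changed no call of the genes followed. Leaving out 1 array gave 2805 to 5519 genes at 2 h, 7126 to 9201 at 4 h, 7825 to 9833 at 24 h, 8763 to 10271 at 48 h, and 1858 to 3080, 5953 to 7227 and 1871 to 2736 over the steps. At 2 h the count was 2805 without replicate 3 and 3173 without replicate 2 of that time.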
